A study of Homo sapiens with 23 samples.

Results

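The genes described here are the 96 cell-cycle and DNA replication genes found by name among the 9497 genes listed in the RNA-seq tables of 12 human thalamus organoid (ThO) libraries. A search of the gene symbols for the families that run the cell cycle (such as the MCM, ORC, GINS, RFC, RRM, CENP, BUB and E2F genes, the cyclins and several KIF motors, with single genes such as MKI67, TOP2A and PCNA) matched 98 names, and KIF21A and KIF21B, which are not cell-cycle genes, were left out. The rule uses names only, though it was set with earlier results of these data known. By the roles assigned here the 96 fall into 32 replication genes, 39 mitotic genes and 25 genes of neither kind. The replication genes comprise 18 of origin licensing and the replicative helicase, 11 of the polymerases and the sliding clamp, and 3 of nucleotide supply. The mitotic genes comprise 7 of mitotic entry and its kinases, 17 of the kinetochore and the spindle checkpoint, and 15 of the spindle, the midzone and the mitotic chromosome. The remaining 25 are 5 E2F factors, 8 G1 and S phase cyclins and kinases, and 12 genes that matched by name and were given none of these roles, such as MCM3AP, POLDIP2 and CCNB1IP1. The 12 also hold CENPV and RRM2B, while CENPJ is counted with the kinetochore genes, so the division is approximate. Because the tables hold only genes whose value was at least 11 in every library, genes of these families that were at or near 0 in any library are not analysed here.

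The organoids were grown from H1, an established human embryonic stem cell line, with a thalamus protocol, and were collected on day 25 and day 30. Each of the 6 groups has 2 libraries, and each library was made from total RNA of 3 pooled organoids, as the labels give it. The tissue field of the labels names embryonic stem cells, the starting material. The WT group was unedited H1, the KO group was H1 carrying the c-Jun knockout, and the OE group, which the labels write H1cJunKO+cJun, carried the same knockout together with an induced c-JUN gene. The sources name BMP7 and a MEK inhibitor for the culture of all thalamus organoids. In the study's methods both belong to the patterning medium, which was replaced by a neural differentiation medium before day 25. In the study c-JUN was removed with CRISPR-Cas9 and put back with a tet-on construct switched on by doxycycline. The study derived more than a single KO clone, and the labels do not say which clone these libraries came from or whether WT and KO organoids also received doxycycline. The comparisons ask whether genes of DNA replication and of mitosis differ between KO and WT organoids, and whether they differ when c-JUN is put back.

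A dividing cell loads the MCM helicase on origins in G1, fires those origins and copies its DNA in S phase with PCNA-clamped polymerases, and then enters mitosis through cyclin B with CDK1. The 2 gene groups are switched on at different times. Replication genes belong to the G1/S wave driven by E2F factors once CDK4, CDK6 and cyclin D have inactivated the RB protein. Mitotic genes belong to the G2/M wave, whose promoters commonly hold CCAAT boxes, bound by NF-Y, and a CHR element, bound by the DREAM and MYB-MuvB complexes. In young brain organoids such transcripts mark neural progenitors in the ventricular-like zones, since neurons leave the cycle for good. c-JUN pairs with FOS or ATF proteins to form AP-1, and is known to act on cyclin D1 and the G1/S step in other cells.

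The values are whole numbers that the depositors had already normalized, with a median of 106 and a maximum of 9910 in every library, so they are scores without a known depth and are compared only within a gene. JUN itself, the targeted gene, had values of 139, 153, 128 and 162 in the 4 WT libraries. Its values were 353, 196, 222 and 248 in the libraries labelled KO. In the libraries labelled OE they were 224, 212, 362 and 202. JUN was thus 0.77 higher in KO than in WT on the log2 scale (exact permutation test of 4 against 4 libraries, two-sided, p = 0.0286, the smallest this design can give), and OE differed from KO by -0.03 (p = 0.886, same exact test). The JUN values, which are of RNA, thus go against the KO label. Those of the OE libraries, which carry an induced c-JUN gene, were not above KO. The values do not measure c-JUN protein, which the study examined by western blot in its cell lines. The genotype field of the OE samples reads as knockout, and they are known as OE from their titles only. All directions below rest on the labels. The libraries labelled KO were also the least alike. Between the 2 libraries of a group, 22 of the 96 members differed by 2-fold or more in KO at day 30, and 10 did in the day 25 KO pair, against 0 to 3 in the WT and OE groups. The second KO library of day 30 stood apart, with a median Spearman correlation of 0.745 to the other libraries over all genes, where the other 11 had 0.83 to 0.934. Of 7 thalamus and diencephalon markers looked up after the values were seen, 4 were listed (TCF7L2, LHX9, IRX3 and OTX2), TCF7L2 at 109 to 465. GBX2, OLIG3 and LHX2 were not listed.

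The promoters of the 2 gene groups carried different letters. RefSeq (GRCh38.p14) windows from 250 bases before to 50 bases after the start of the gene were matched for 83 of the 96 members and were searched on both strands for the E2F letters TTTCCCGC, TTTCGCGC, TTTGCCGC and TTTGGCGC. These letters stood in 13 of 30 replication windows (43.3%) and in 5 of 33 mitotic windows (15.2%), against 3.33% of all 27305 windows and 5.85% of the windows of genes in the tables. The CHR letters, TTTGAA or TTCGAA, stood in 2 of the 30 replication windows (6.67%) and in 24 of the 33 mitotic windows (72.7%), against 16.6% of all windows and 10.7% of those of genes in the tables. The CCAAT box was equally common in both groups, at 66.7% of each, against 35.7% of all windows and 38% of those of genes in the tables. CHR and CCAAT letters stood together in 18 mitotic windows (54.5%) and in 2 replication windows. Among the 15 spindle, midzone and chromosome genes, 12 of the 13 with a window held CHR letters. The AP-1 letters, TGACTCA and TGAGTCA, the element c-JUN is known to bind with FOS proteins, stood in 0 of the 83 member windows, in 2.39% of the windows of genes in the tables and in 4.92% of all windows. TGACGTCA, the CRE element to which c-JUN can bind with ATF proteins, stood in 7 of the 83 (8.43%), in 3.63% of the windows of genes in the tables and in 1.98% of all windows. No window was matched for E2F8, CCND1, CCND2, CDK2, BUB3, CENPJ, TTK, RRM2B, AURKA, MCM4, MCM5, CDCA2 and TPX2. A match describes letters, not a bound site, and an absence covers only these letters in this window.

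The next stretches come from genes whose values are given below. Those with E2F or CHR letters are shown because these letters set the 2 groups apart, which the CRE letters do not. They lie before the start of the gene, are printed 5′ to 3′ on the strand of the gene, and have E2F, CHR, CCAAT box and CRE letters in capitals. The first 3 are replication genes with E2F letters, MCM6 at chr2:135876485-135876604 (minus strand), PCNA at chr20:5126631-5126750 (minus strand) and TYMS at chr18:657602-657633 (plus strand).
MCM6: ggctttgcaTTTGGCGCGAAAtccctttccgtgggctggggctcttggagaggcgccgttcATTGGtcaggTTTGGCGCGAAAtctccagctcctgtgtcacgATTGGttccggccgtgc
PCNA: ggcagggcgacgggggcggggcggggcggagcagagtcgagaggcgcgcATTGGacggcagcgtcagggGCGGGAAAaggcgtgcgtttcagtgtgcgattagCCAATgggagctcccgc
TYMS: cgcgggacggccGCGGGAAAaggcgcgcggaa
In MCM6 the letters of both strands overlap, so that TTTGGCGC and GCGCGAAA, which is TTTCGCGC read from the other strand, share bases, and the pair occurs at 2 places.

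The following 4 are mitotic genes with CHR letters beside CCAAT boxes, MKI67 at chr10:128126431-128126533 (minus strand), TOP2A at chr17:40417933-40418052 (minus strand), CDC20 at chr1:43358823-43358942 (plus strand) and KIF4A at chrX:70290034-70290087 (plus strand).
MKI67: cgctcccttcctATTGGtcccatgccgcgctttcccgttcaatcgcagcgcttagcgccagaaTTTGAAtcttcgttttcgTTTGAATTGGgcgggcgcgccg
TOP2A: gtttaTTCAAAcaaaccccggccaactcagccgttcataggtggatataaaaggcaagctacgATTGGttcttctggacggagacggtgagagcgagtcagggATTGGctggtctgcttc
CDC20: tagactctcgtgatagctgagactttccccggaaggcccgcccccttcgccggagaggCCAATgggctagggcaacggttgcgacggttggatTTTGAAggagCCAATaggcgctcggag
KIF4A: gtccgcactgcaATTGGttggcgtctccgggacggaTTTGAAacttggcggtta
In MKI67 the second CHR shares its last base with a reversed CCAAT box.

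The last 3 hold the CRE letters and belong to genes called below, CCNA2 at chr4:121823923-121823976 (minus strand), CENPE at chr4:103198446-103198469 (minus strand) and KIF15 at chr3:44761660-44761691 (plus strand).
CCNA2: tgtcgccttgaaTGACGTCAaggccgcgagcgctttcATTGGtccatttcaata
CENPE: tggaatggcccaTGACGTCAcgag
KIF15: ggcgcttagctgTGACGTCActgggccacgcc
The CRE letters read the same on both strands. They stood in 2 replication windows (6.67%) and 4 mitotic windows (12.1%). Of the 8 members called in OE against KO over both days that had a window, 3 held them. NDC80, MCM10, RFC1 and PRC1 held them too and were not called. The KIF15 window also held E2F and CHR letters, outside the stretch shown.

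At day 25 most members were lower in the organoids labelled KO than in WT. The estimate was below 0 for 83 of the 96, the median member differed by -0.51 on the log2 scale, and the median of all genes was -0.02. The test was limma on log2(value + 1) with a Benjamini-Hochberg adjusted p under 0.05 over all genes and a 2-fold change, which 0 members and 0.0105% of all genes passed. At an unadjusted p under 0.05, 29 members were lower (30.2%) and 1 was higher (1.04%), where 7.39% of all genes were lower and 6.03% higher. With a single library left out, 0 to 2 members passed the test, 2 of them without the first KO library of day 25 and 1 without the second. By group the median was -0.47 over the 32 replication genes, 9 of them lower at that p, and -0.52 over the 39 mitotic genes, 13 of them lower. These are bulk libraries, in which fewer cycling cells and less of these transcripts per cell cannot be told apart. The values in every library are drawn in the heat map of the 96 genes.

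**Figure D1:**
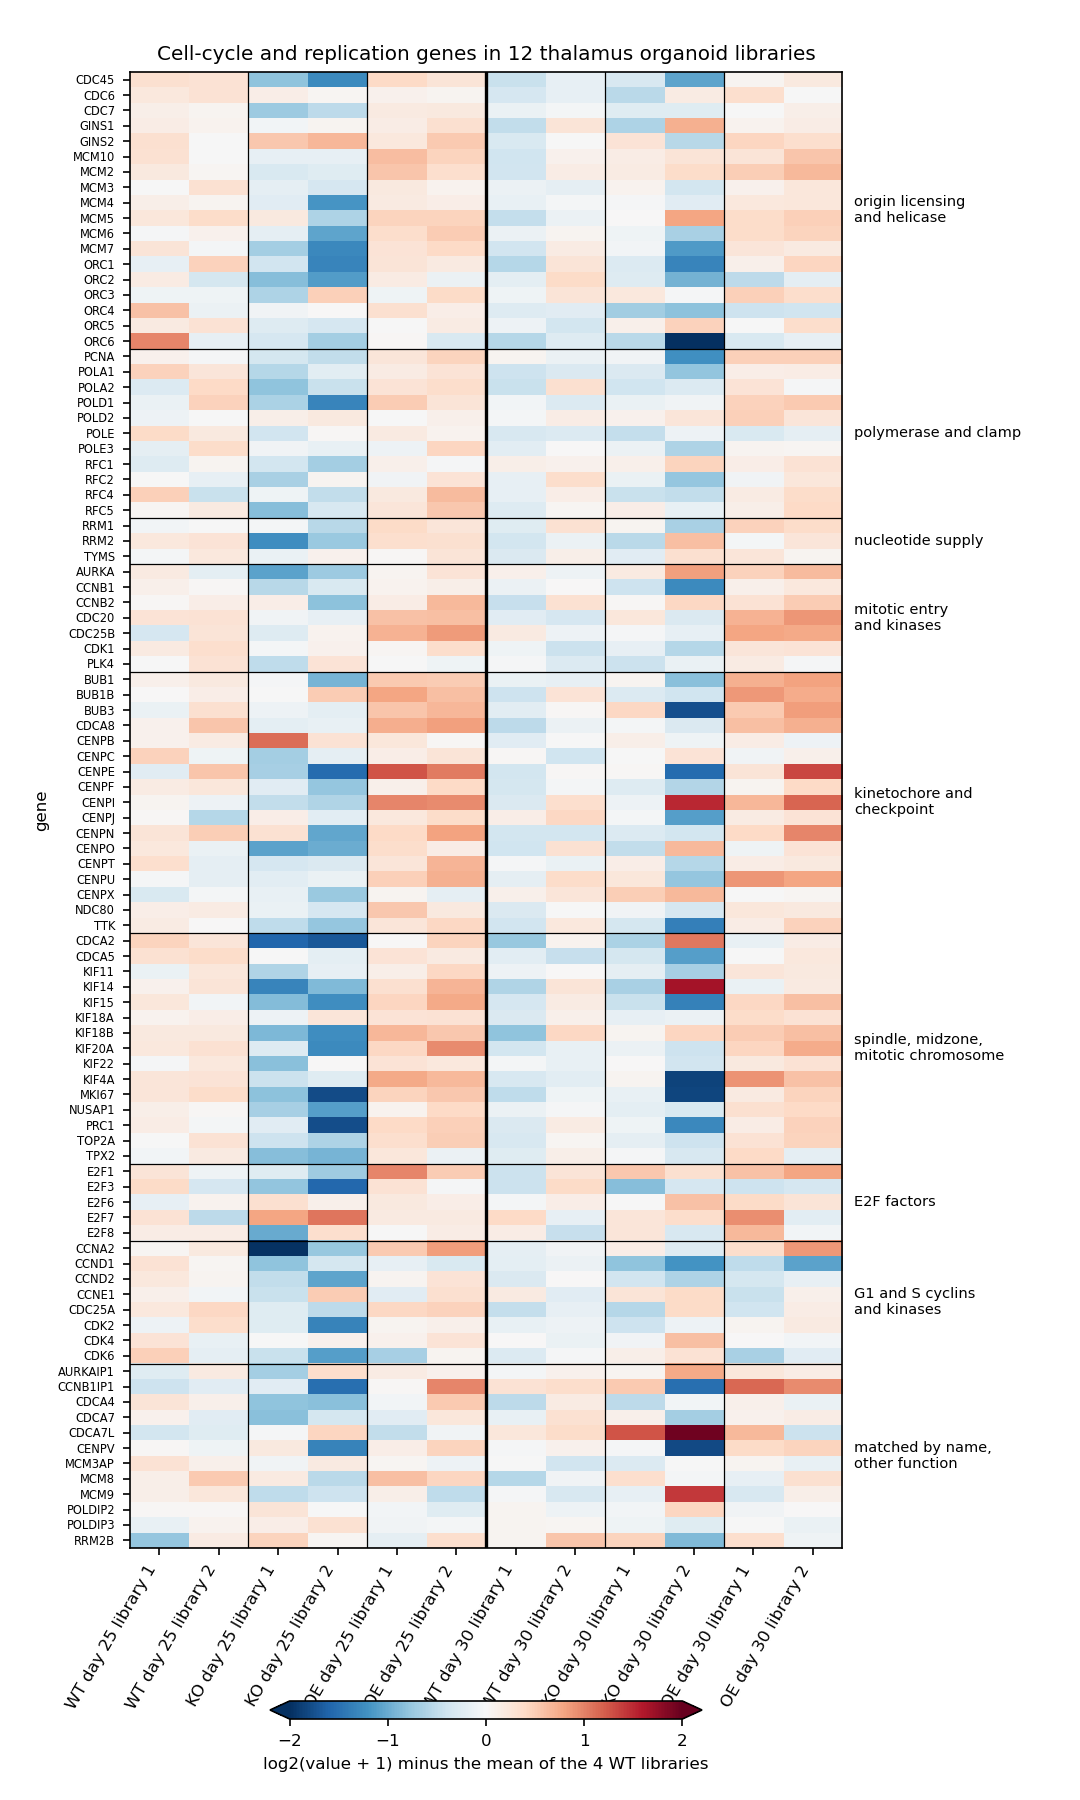
Heat map of the 96 members (rows, grouped by role) in the 12 libraries (columns, grouped by genotype and day). Colour is log2(value + 1) minus the gene's mean over the 4 WT libraries, blue lower and red higher, cut at 2 in each direction. Both day 25 KO columns are mostly blue, the 4 OE columns are mostly pale red, and the second day 30 KO library holds both the deepest blue and the deepest red cells of day 30.

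The lower values at day 25 were found in most roles. The counts below stand beside 7.39% of all genes lower at an unadjusted p under 0.05. Among spindle, midzone and chromosome genes all 15 estimates were below 0, 9 of them at an unadjusted p under 0.05, with a median of -0.96. Among the G1 and S cyclins and kinases 5 of 8 were lower at that p, with a median of -0.83. The 17 kinetochore and checkpoint genes had 3 such genes and a median of -0.49, and the 18 licensing and helicase genes had 5 and a median of -0.52. The 12 genes given none of the roles had 1, near the share of all genes, and a median of -0.32. The mean log2 level of the mitotic entry genes, centred on the 12 libraries, was 0.01 and 0.11 in WT and -0.39 and -0.28 in KO. For nucleotide supply it was 0.04 and 0.16 in WT and -0.47 and -0.40 in KO.

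MKI67 encodes Ki-67, the coat protein of mitotic chromosomes used to mark cycling cells. At day 25 its value was 461 and 504 in WT against 220 and 113 in KO, a log2 difference of -1.61 (SE 0.45, adjusted p = 0.203). TOP2A, the topoisomerase that untangles sister chromatids, had 820 and 1008 in WT against 617 and 536 in KO (-0.66, SE 0.19, adjusted p = 0.203). Both genes were lower in each KO library than in each WT library of that day, without overlap. The share of all genes without overlap on a single day was not counted. With 2 libraries a group, such non-overlap, here and below, only describes the libraries. CDCA2, which targets a phosphatase to chromosomes at mitotic exit, had the lowest estimate of the 96. It was 52 and 45 in WT against 12 and 11 in KO (-1.98, SE 0.51, adjusted p = 0.184), and 11 is the lowest value the tables hold.

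Of the 32 replication genes 29 had estimates below 0, among them 10 of the 11 polymerase and clamp genes, whose median was -0.45. MCM7, a subunit of the helicase ring, was 592 and 478 in WT against 308 and 202 in KO at day 25 (-1.09, SE 0.33, adjusted p = 0.223). CDC45, which joins that ring to form the active helicase, was 53 and 52 in WT against 24 and 17 in KO (-1.33, SE 0.35, adjusted p = 0.188). RRM2, the S phase subunit of ribonucleotide reductase, was 188 and 196 in WT against 68 and 97 in KO (-1.23, SE 0.34, adjusted p = 0.199). In each of these 3 genes the KO libraries lay below the WT libraries of the day. MCM3, another subunit of the ring, was 222 and 278 in WT against 198 and 177 in KO (-0.41, SE 0.22, adjusted p = 0.454). MCM5 was 150 and 167 in WT against 148 and 84 in KO (-0.50, SE 0.32, adjusted p = 0.526). These libraries too did not overlap, though for MCM5 the nearest values were 148 in KO and 150 in WT. Differences between subunits were not tested. TYMS, thymidylate synthase, overlapped between the groups, with 197 and 234 in WT against 184 and 214 in KO. Its partner in supply RRM1, the large reductase subunit, also overlapped at 220 and 228 against 222 and 156.

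Cyclins differed in the same direction. CCNA2, the cyclin A of S phase and G2, was 84 and 94 in WT against 20 and 48 in KO at day 25 (-1.49, SE 0.38, adjusted p = 0.184). CCND2, a D-type cyclin of early progenitors, was 1157 and 1043 in WT against 709 and 480 in KO (-0.91, SE 0.21, adjusted p = 0.171). CCND1, the D-type cyclin that answers growth signals, was 1130 and 946 in WT against 532 and 721 in KO (-0.74, SE 0.23, adjusted p = 0.226). All 3 were lower in both KO libraries than in both WT libraries. CDK4, a partner of the D-type cyclins, was not, with 350 and 260 in WT against 286 and 306 in KO. CDK6, its close relative, had 272 and 172 in WT against 143 and 90 in KO (-0.92, SE 0.33, adjusted p = 0.275). CCNE1, the cyclin that triggers S phase with CDK2, was near the lower limit of the tables in all groups, with 18 and 16 in WT against 12 and 24 in KO.

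E2F factors did not move as a group. E2F7, a repressor of E2F targets, was the only member higher at an unadjusted p under 0.05 in KO at day 25, with 50 and 28 in WT against 71 and 86 in KO (1.04, SE 0.42, adjusted p = 0.323). E2F3, an activator, was 96 and 58 in WT against 42 and 24 in KO (-1.21, SE 0.40, adjusted p = 0.253). E2F1, the activator most closely tied to S phase entry, was 46 and 36 in WT against 32 and 23 in KO. The estimates were above 0 for 2 of the 5 E2F factors and below 0 for 3.

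At day 30 the members as a group lay close to WT. The median difference of KO from WT was -0.07 over all members, -0.02 over replication genes and -0.13 over mitotic genes. No member passed the test (limma, 0% of all genes), and at an unadjusted p under 0.05, 5 were lower and 1 was higher, where 3.93% and 3.43% of all genes were. The 2 KO libraries of this day disagreed. MKI67 was 274 and 368 in WT against 353 and 109 in KO, and KIF14, a midbody motor, was 27 and 50 in WT against 26 and 134 in KO. For MKI67 the second KO library lay below WT and for KIF14 above it. Without the second KO library the mitotic median turned to 0.07. Without the first, 16 members passed the test, from a KO group of a single library that is assumed to vary like the other groups.

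CCND1 was low in KO on both days. At day 30 it was 806 and 850 in WT against 532 and 403 in KO (-0.84, SE 0.23, adjusted p = 0.643). Over both days the difference was -0.79 (SE 0.16, adjusted p = 0.130), and all 4 KO libraries lay below all 4 WT libraries. KIF15, a motor that holds spindle poles apart, was 112, 92, 76 and 108 in WT and 52, 40, 70 and 37 in KO, also without overlap (-0.98 over both days, SE 0.24, adjusted p = 0.176). CCNB1, the cyclin of mitotic entry, was 178, 168, 152 and 166 in WT and 112, 134, 124 and 68 in KO, without overlap (-0.64, SE 0.20, adjusted p = 0.204). CDCA7L, one of the genes given none of the roles, went the other way, with 67 and 74 in WT against 138 and 222 in KO at day 30 (1.30, SE 0.39, adjusted p = 0.643).

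With both days averaged, 0 members passed the limma test in KO against WT, as did 0.0211% of all genes, and 28 were lower and 1 higher at an unadjusted p under 0.05, against 8.16% and 7.01% of all genes. The median was -0.34 over replication genes, 11 of them lower at that p, and -0.35 over mitotic genes, also 11. Without the first KO library of day 30, 12 members passed the test. Counted by libraries alone, 7 members had every KO library below every WT library (CCNB1, CCND1, CCND2, CDC7, KIF11, KIF15 and NUSAP1), where 3.14% of all genes did, and 0 had every KO library above, where 2.74% did. Leaving out the second KO library of day 30 made this 12 members, against 5.04% of all genes.

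The day 25 and day 30 differences of KO from WT were themselves compared. Such a change can come from either genotype, and the levels in WT and KO are given with the comparison of days below. The estimate at day 30 was above that at day 25 for 69 of the 96 members, with a median of 0.42. In limma 0 members passed an adjusted p under 0.05 for this difference (0% of all genes), and at an unadjusted p under 0.05, 14 were higher and 0 lower, where 3.17% and 2.46% of all genes were. Without the first KO library of day 30, 3 members passed. The 14 included CCNA2, RRM2, AURKA, POLD1 and CDCA2. Members whose KO libraries lay on opposite sides of WT on the 2 days are given in the closing section.

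Most markers of neural progenitors also had lower values in KO at day 25, though 0 passed the test. Of 14 such markers 11 were listed, none at 0, and 10 had estimates below 0. At an unadjusted p under 0.05, 5 were lower in KO than in WT, among them SOX1 (-1.99), NES (-1.04) and HES1 (-1.14), with a median of -0.95 over the 11. Of all genes 7.39% were lower at that p and 6.03% higher. The others did not reach that p: NOTCH1 (-1.36), SOX2 (-0.89), SOX3 (-0.70), PAX6 (-0.70), SOX9 (-0.10) and PROM1 (0.37). The centred mean log2 level of the 11 was 0.40 and 0.27 in the WT libraries of day 25, -0.56 and -0.64 in KO and 0.26 and 0.38 in OE. At day 30 it was 0.02 and 0.18 in WT, 0.11 and -0.66 in KO and 0.12 and 0.12 in OE. The 14 listed neuron markers had a median difference of 0.61 between KO and WT at day 25, with 4 higher at an unadjusted p under 0.05 and 0 lower. The part of progenitor and neuron numbers in the cell-cycle differences was not tested. Of 8 mesenchyme markers 2 were listed, and of 7 pluripotent stem cell markers 1. The plot of list levels by library shows the replication, mitotic, progenitor and neuron lists side by side.

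**Figure D2:**
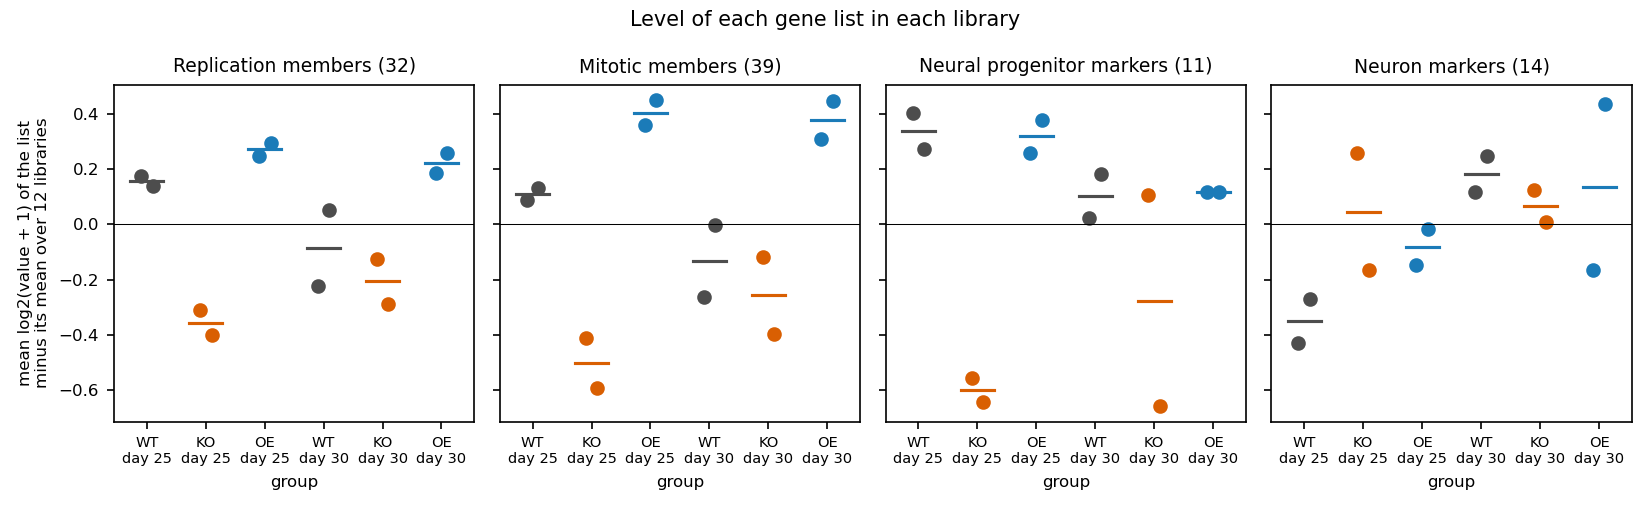
Level of 4 gene lists in each library, as the mean log2(value + 1) of the list minus its mean over the 12 libraries. Points are libraries, bars the mean of the 2 libraries of a group, grey WT, orange KO, blue OE. Mitotic members lie at -0.41 and -0.59 in the day 25 KO libraries, from 0.31 to 0.45 in the 4 OE libraries, and progenitor markers are lowest in both day 25 KO libraries and in the second KO library of day 30.

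Cell-cycle transcripts were higher in the organoids labelled OE than in those labelled KO, whose JUN values overlapped. Averaged over days, 84 of 96 estimates of OE minus KO were above 0, among them all 32 replication genes and 37 of 39 mitotic genes. The median was 0.59 over all members, 0.53 over replication genes and 0.76 over mitotic genes, where the median of all genes was 0.01. By the test, 9 members rose and 0 fell, which is 9 of 96 where 1.05% of all genes rose. The 9 were CDC45 and MCM7 of replication, CENPE, BUB1, TTK, KIF15, KIF20A and MKI67 of mitosis, and CCNA2. At an unadjusted p under 0.05, 56 members were higher and 1 lower, against 11.5% and 10.7% of all genes. The call depends on which libraries enter: with a single library left out, 0 to 20 members passed. The count was 0 without the second OE library of either day, 1 without the first of day 25 and 4 without the first of day 30. It was 14 and 20 without the first KO library of day 25 and day 30, and 2 without the second KO library of either day. With only the 8 libraries compared in the fit 0 passed. The direction of the 9 could not change in these fits, since each had every OE library above every KO library.

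Progenitor markers had a higher median at day 25 and a median near 0 at day 30. Over both days, of the 11 listed, 1 rose by the test, SOX2 (1.27, SE 0.29, adjusted p = 0.0429), 6 were higher at an unadjusted p under 0.05, and the median was 0.65. Of all genes 1.05% rose and 11.5% were higher at that p. By day the median was 1.14 at day 25, with 6 higher and 0 lower at that p, and 0.09 at day 30, with 2 higher and 0 lower. Of all genes 9.31% were higher and 8.5% lower at day 25, and 5.9% and 5.01% at day 30. The 14 neuron markers had a median of 0.01 over both days, with 2 higher and 3 lower at that p, where 11.5% and 10.7% of all genes were. Of 10 listed markers of roof plate and choroid plexus (of 12), 1 rose and 2 fell by the test, where 1.05% of all genes rose. The share of all genes that fell is not given here, so the 2 cannot be read as a result about these markers. The part of cell-type numbers in the rise was not tested.

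CENPE, the motor that brings chromosomes to the metaphase plate, rose most. It was 78, 42, 126 and 42 in KO and 298, 254, 148 and 313 in OE, a log2 difference of 1.90 (SE 0.37, adjusted p = 0.027), and the groups did not overlap. MKI67 was 220, 113, 353 and 109 in KO and 536, 570, 441 and 532 in OE (1.55, SE 0.32, adjusted p = 0.032). KIF15 was 52, 40, 70 and 37 in KO and 130, 162, 128 and 146 in OE (1.53, SE 0.24, adjusted p = 0.0124). For these 3 genes, as for the other 6 that rose, every OE library lay above every KO library. Among the alternatives tried KIF15 passed in 16 of 19, CCNA2 in 13, CENPE in 12 and MKI67 in 11. The other 5 passed in fewer, MCM7 and KIF20A in 9 of 19, TTK and BUB1 in 8 of 19, and CDC45 in 7 of 18.

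CCNA2 rose by 1.36 (SE 0.27, adjusted p = 0.029), from 20, 48, 90 and 68 in KO to 118, 146, 104 and 150 in OE. KIF20A, the midzone motor needed for cytokinesis, was 78, 38, 86 and 70 in KO and 125, 181, 126 and 156 in OE (1.15, SE 0.24, adjusted p = 0.0344). BUB1, a kinase of the spindle checkpoint, was 80, 42, 84 and 45 in KO and 117, 116, 133 and 142 in OE (1.07, SE 0.25, adjusted p = 0.0441). TTK, the checkpoint kinase MPS1, also rose, from 94, 78, 104 and 51 in KO to 158, 178, 148 and 184 in OE (1.06, SE 0.24, adjusted p = 0.0416).

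The replication genes that rose both belong to the helicase. CDC45 was 24, 17, 34 and 20 in KO and 56, 51, 44 and 49 in OE (1.08, SE 0.25, adjusted p = 0.0422). MCM7 was 308, 202, 476 and 224 in KO and 600, 650, 586 and 558 in OE (1.06, SE 0.23, adjusted p = 0.038). A further 9 members had an adjusted p under 0.05 with a change under 2-fold, which made 18 of 96 in all, 5 of replication and 12 of mitosis, where 1.62% of all genes were higher at that adjusted p. PCNA, the sliding clamp, was of this kind, with 172, 156, 209 and 94 in KO and 260, 301, 308 and 306 in OE (0.95, SE 0.22, adjusted p = 0.0429). So was MCM6, with 138, 75, 148 and 99 in KO and 199, 222, 202 and 214 in OE (0.91, SE 0.21, adjusted p = 0.0441). TOP2A had 617, 536, 731 and 616 in KO and 1042, 1156, 1008 and 1126 in OE (0.80, SE 0.13, adjusted p = 0.0147). CENPF, a large kinetochore protein that peaks in G2 and M, had 430, 293, 420 and 336 in KO and 542, 662, 525 and 662 in OE (0.70, SE 0.16, adjusted p = 0.0441). All 4 genes had every OE library above every KO library. CDC20, which activates the anaphase-promoting complex, had 109, 102, 134 and 93 in KO and 172, 173, 185 and 212 in OE (0.76, SE 0.17, adjusted p = 0.0395).

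Counted by libraries, 42 of the 96 members had every OE library above every KO library, where 5.17% of all genes did, and 0 had every OE library below, where 4.51% did. The 42 comprised 13 of 32 replication genes and 26 of 39 mitotic genes. Without the second KO library of day 30 the count was 54, against 7.36% of all genes, of which 18 were replication and 31 mitotic genes. CCNB1, CDK2 and CCND2 were among the 42. CDK1, the kinase of mitotic entry, just overlapped, with 126, 138, 116 and 87 in KO and 134, 166, 154 and 157 in OE (0.40, SE 0.18, adjusted p = 0.209). CCNB2, the second B-type cyclin, overlapped as well, with 88, 45, 82 and 108 in KO and 89, 126, 98 and 115 in OE (0.46, SE 0.27, adjusted p = 0.337). Members that stood outside the pattern included CCND1, whose OE values of 822, 748, 650 and 441 overlapped the KO values of 532, 721, 532 and 403, and CDK4, with 307, 350, 291 and 278 in OE and 286, 306, 274 and 435 in KO.

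On each day taken alone no member passed the test. At day 25, 0 members passed in limma (0.274% of all genes did), and 49 were higher and 0 lower at an unadjusted p under 0.05, where 9.31% and 8.5% of all genes were. Without the first KO library of day 25, 11 passed. The 49 comprised 16 of 32 replication genes, with a median of 0.63, and 25 of 39 mitotic genes, with a median of 0.87. At day 30, 0 members passed (0.0842% of all genes), and 30 were higher and 1 lower, against 5.9% and 5.01% of all genes. Without the first KO library of day 30, 24 passed. Here 7 of 32 replication genes were higher at that p, with a median of 0.34, and 21 of 39 mitotic genes, with a median of 0.65. The 8 G1 and S cyclins and kinases had 4 such genes at day 25 and 0 at day 30, and their median went from 0.65 to 0.09. Whether these differences between roles or days exceed the spread was not tested.

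The plot of fold changes by role sets the 3 genotype comparisons side by side on both days. KIF4A, a chromosome-bound motor, and CCNB1IP1, a meiosis and cyclin B interacting protein, had the highest estimates of OE minus KO at day 30 besides CENPE. KIF4A was 70 and 18 in KO and 127 and 102 in OE on that day (1.64, SE 0.48, adjusted p = 0.346), and reads could be shared with its near-identical retrocopy KIF4B. CCNB1IP1 was 85 and 20 in KO and 132 and 114 in OE (1.54, SE 0.60, adjusted p = 0.424). Both low values came from the second KO library. CDCA7L was the single member lower at day 30, with 138 and 222 in KO and 90 and 42 in OE (-1.49, SE 0.39, adjusted p = 0.290).

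**Figure D3:**
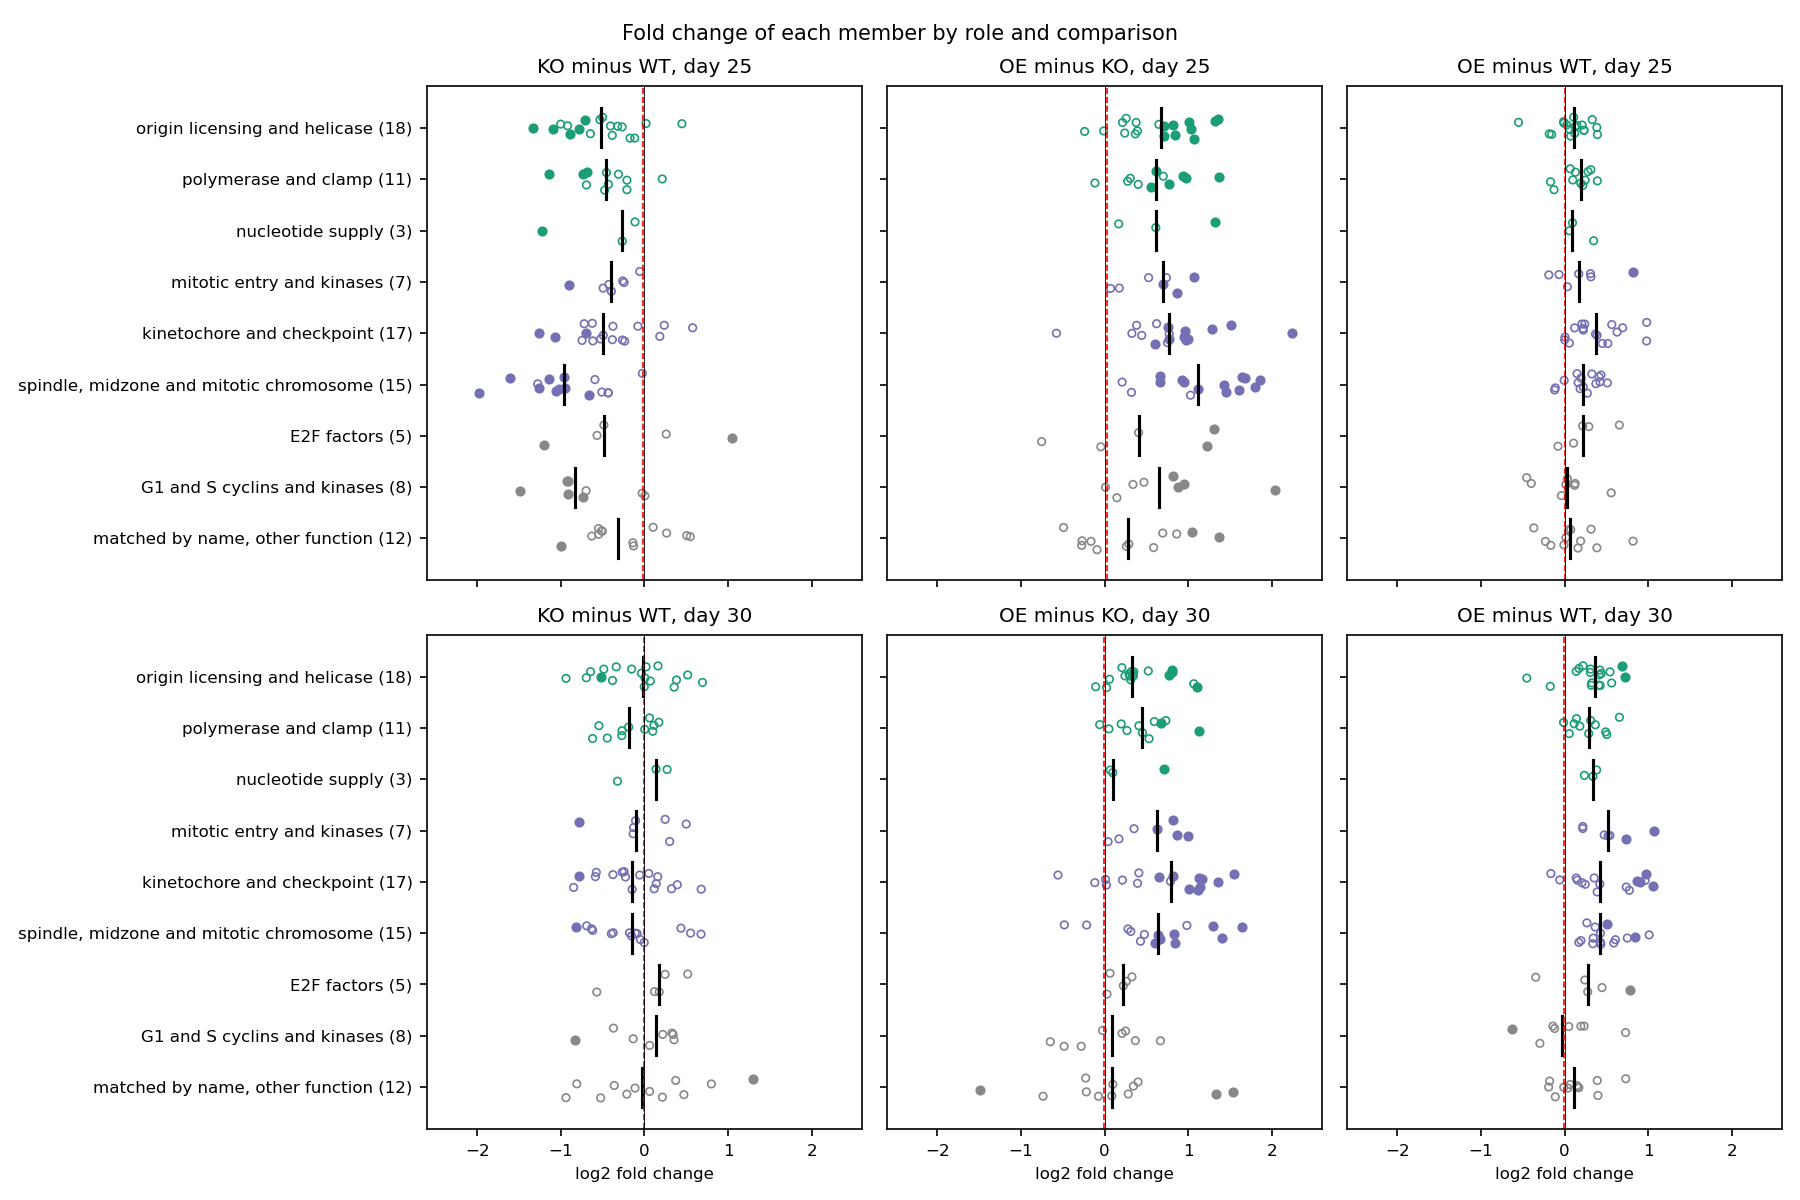
Log2 fold change of each member (points) by role (rows, with the number of genes) for 3 comparisons at day 25 (upper) and day 30 (lower). Filled points have an unadjusted p under 0.05 in limma, black bars are the median of the role, the dashed line is the median of all 9497 genes, green marks replication, violet mitosis and grey neither. In OE minus KO the medians of the 3 mitotic roles lie at 0.70, 0.77 and 1.11 at day 25 and at 0.63, 0.79 and 0.64 at day 30.

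OE was also set against WT, which shares its libraries with the comparisons above. At day 25 the members were close to WT, with a median of 0.17, 0 members past the limma test (0% of all genes), and 1 higher and 0 lower at an unadjusted p under 0.05, where 1.9% and 2.28% of all genes were. That member was CDC25B, the phosphatase that starts CDK1 at mitotic entry. At day 30 the median was 0.34, 0 members passed (0.0316% of all genes), and 11 were higher and 1 lower, against 1.5% and 2.58%. Of the 11, 8 were mitotic genes and 2 replication genes. With both days averaged, 0 members passed (0.158% of all genes), and 15 were higher and 1 lower at an unadjusted p under 0.05, where 3.53% and 4.69% of all genes were. The 15 held 11 of the 39 mitotic genes and 2 of the 32 replication genes.

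The highest estimates over both days were those of CENPE (0.97), CENPI (0.94), CDC25B (0.78), CCNB1IP1 (0.78) and BUB1B (0.75), followed by KIF4A and E2F1 (both 0.72). The 0.97 of CENPE came with overlap, at 106, 182, 96 and 126 in WT and 298, 254, 148 and 313 in OE. CDC25B was 110, 168, 158 and 130 in WT and 226, 254, 242 and 238 in OE (0.78, SE 0.18, adjusted p = 0.158). CDC20 was 138, 140, 98 and 90 in WT and 172, 173, 185 and 212 in OE (0.69, SE 0.17, adjusted p = 0.192). BUB1B, the checkpoint protein BUBR1, was 90, 98, 67 and 109 in WT and 156, 136, 164 and 150 in OE (0.75, SE 0.21, adjusted p = 0.253). In all 3 the OE libraries lay above every WT library while the KO libraries overlapped those of WT. For CDC25B the KO values were 117, 146, 138 and 124.

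CENPI and CDCA8, parts of the inner kinetochore and of the chromosomal passenger complex, were likewise higher in each OE library. CENPI was 18, 16, 14 and 22 in WT and 35, 34, 28 and 40 in OE (0.94, SE 0.36, adjusted p = 0.495). CDCA8 was 71, 98, 46 and 61 in WT and 111, 118, 101 and 110 in OE (0.72, SE 0.20, adjusted p = 0.253). CENPN, a reader of centromeric chromatin, stood apart from WT at day 30, with 26 and 26 in WT and 45 and 68 in OE (1.06, SE 0.43, adjusted p = 1.000). In total 21 members had every OE library above every WT library, 14 mitotic and 4 replication genes (MCM2, MCM4, MCM6 and PCNA), where 4.13% of all genes did. None had every OE library below, where 4.34% did. MCM2, another subunit of the helicase ring, was 297, 267, 200 and 288 in WT and 384, 327, 366 and 408 in OE (0.51, SE 0.15, adjusted p = 0.334).

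CCND1 was the single member lower in OE than in WT at an unadjusted p under 0.05. At day 30 it was 806 and 850 in WT and 650 and 441 in OE (-0.63, SE 0.23, adjusted p = 0.958), and over both days the difference was -0.51 (SE 0.16, adjusted p = 0.369). CCND2 had 1042 and 1212 in OE and 1157 and 1043 in WT at day 25, with overlap. The plot of 12 genes by library shows these patterns together.

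**Figure D4:**
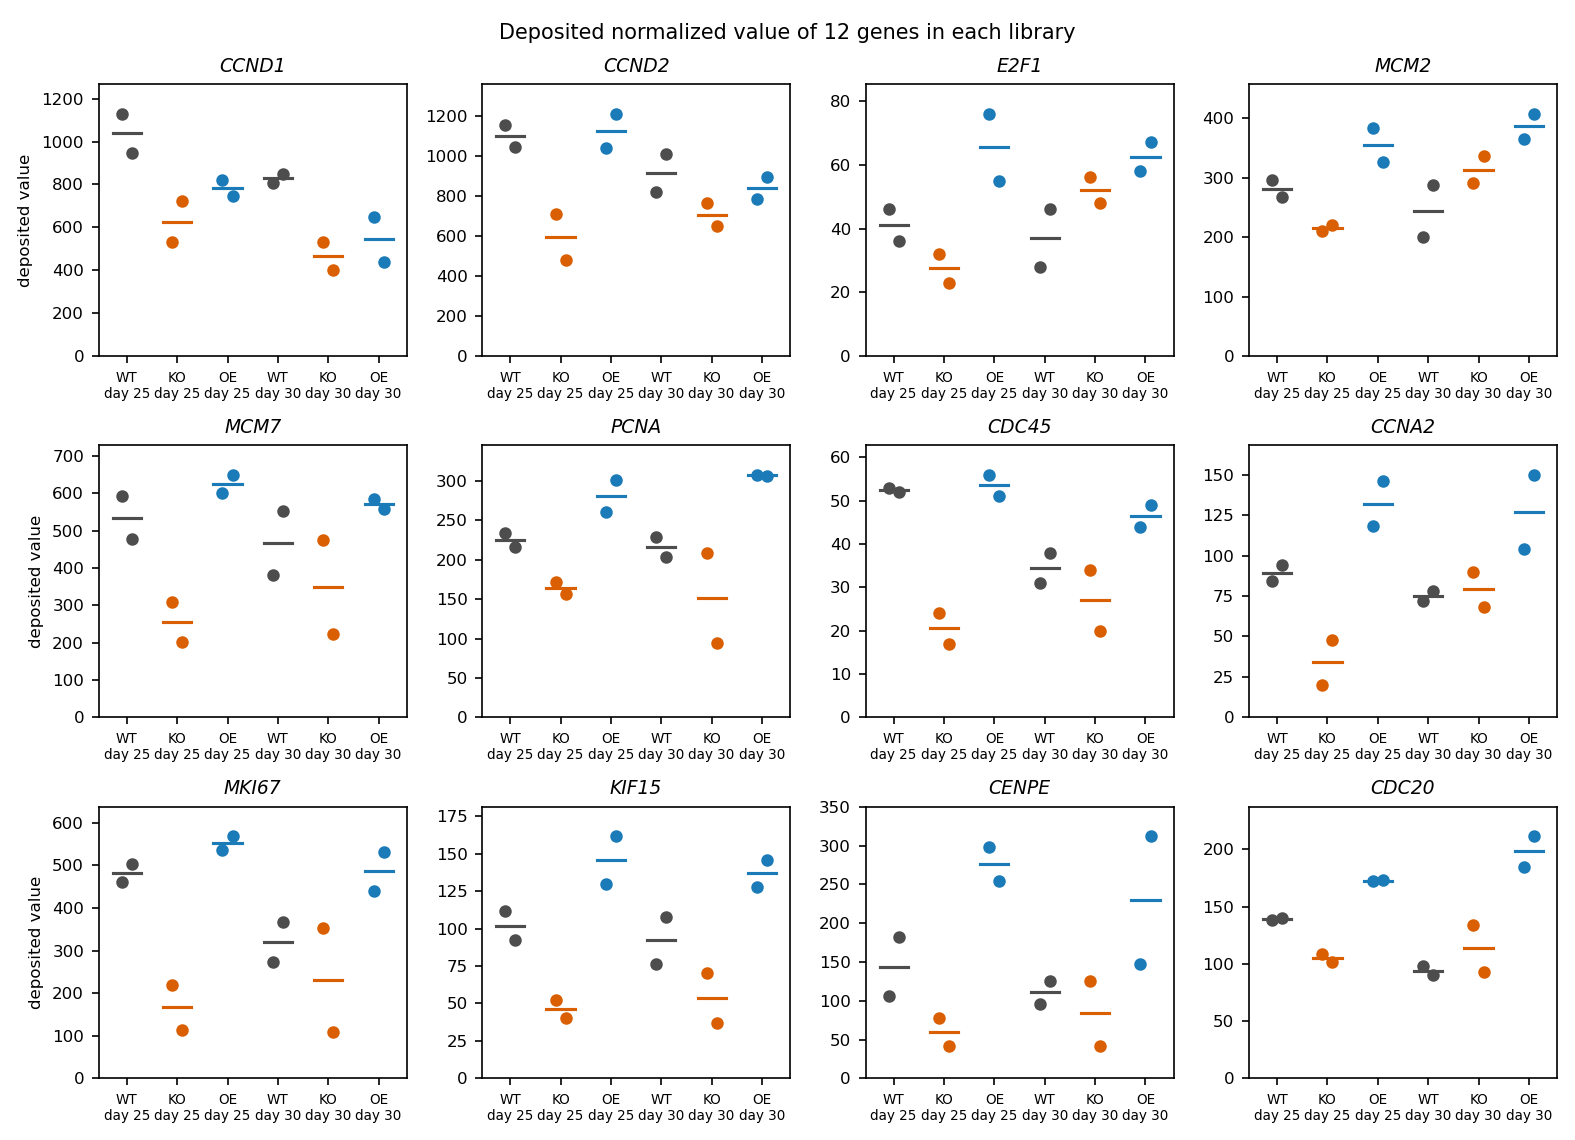
Deposited normalized value (linear axis from 0, no unit) of 12 members in each library, by group. Points are libraries, bars the mean of the 2 libraries, grey WT, orange KO, blue OE. CCND1 is at 403 to 721 in the 4 KO libraries against 806 to 1130 in WT, and CDC20 is at 172 to 212 in the 4 OE libraries against 90 to 140 in WT.

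Set against each other within a library, mitotic and replication genes had a higher balance in OE than in WT or KO. The centred level of the mitotic list minus that of the replication list was -0.09, -0.0046, -0.04 and -0.05 in the WT libraries. It was -0.10, -0.19, 0.01 and -0.11 in the KO libraries and 0.11, 0.15, 0.12 and 0.19 in the OE libraries. All 4 OE libraries thus lay above the other 8. This is a description of the libraries, with no test, since the lists were chosen with results of these data known.

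Between day 25 and day 30, averaged over genotypes, the members did not move together. The median difference was -0.01, 0 members passed in limma (0% of all genes), and 4 were higher and 4 lower at an unadjusted p under 0.05, where 5.76% and 5.54% of all genes were. ORC4, a subunit of the origin recognition complex, was the lowest, with 652, 402, 412, 439, 542 and 478 at day 25 and 365, 373, 268, 246, 326 and 329 at day 30 (-0.61, SE 0.13, adjusted p = 0.193), without overlap. AURKA, the centrosome kinase, was 61, 47, 25, 32, 56 and 65 at day 25 and 58, 50, 61, 96, 74 and 84 at day 30 (0.60, SE 0.19, adjusted p = 0.302), with overlap. The average over genotypes hides opposite shifts. The centred level of all members in WT was 0.11 and 0.11 at day 25 and -0.20 and 0.02 at day 30. In KO it was -0.34 and -0.46, then -0.08 and -0.26. In OE it was 0.25 and 0.34, then 0.22 and 0.29. The level thus fell in WT and rose in KO, and these shifts were not tested.

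Genes of the same pathways that the name search does not reach were taken from lists chosen with earlier results of these data known. Of 43 other G2 and M genes listed (of 52 in the list), 9 rose and 0 fell in OE against KO over both days, with a median of 0.88 and 37 higher and 0 lower at an unadjusted p under 0.05. Of all genes 1.05% rose, and 11.5% were higher and 10.7% lower at that p. They included PIMREG (1.39, SE 0.23, adjusted p = 0.0158), HMGB2 (1.35, SE 0.26, adjusted p = 0.024) and MYBL2, the B-MYB activator of G2/M promoters (1.58, SE 0.35, adjusted p = 0.038). In KO against WT at day 25, 17 of the 43 were lower and 0 higher at that p, where 7.39% and 6.03% of all genes were, with a median of -0.65, PIMREG being lowest at -1.78 (SE 0.33, adjusted p = 0.171). Of 30 other S phase genes listed (of 44), 0 passed the test in OE against KO over both days and 13 were higher and 0 lower at that p, against 11.5% and 10.7% of all genes, with a median of 0.46. The list of CDK inhibitors, pocket proteins and their partners had 10 of 16 listed. Of the 10, 2 were higher and 0 lower in OE against KO at an unadjusted p under 0.05, the inhibitor CDKN1C (0.50, SE 0.19, adjusted p = 0.157) and TFDP2, a dimerization partner of E2F factors (0.94, SE 0.30, adjusted p = 0.102). Among 9 listed p53 targets (of 14) 1 was higher and 1 lower at that p, and CDKN1A, the p21 inhibitor, had an estimate of 0.55 (SE 0.30, adjusted p = 0.304).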

How the data were processed

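Total RNA of 3 pooled organoids per library, per the labels, was made into rRNA-depleted stranded libraries and sequenced as paired reads, per the study's methods. The submitters' processing notes name bcl2fastq, RSEM, Bowtie2 and hg19, without roles, while the gene positions in the tables are those of GRCh38. The counting strand and the normalization are not given in the sources used here. The values deposited by the authors are normalized scores rounded to whole numbers, with the same minimum, median and maximum in all 12 libraries, so depth is unknown, no count model was used, and values cannot be compared between genes. Equal distributions also mean that a shift shared by most genes cannot be seen.

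From these values limma 3.58.1 (R 4.3.3) was fitted to log2(value + 1), so that changes of low genes are understated, with 6 group means, an intensity trend and all 12 libraries. It had 6 residual and 5.29 prior degrees of freedom, and p-values were adjusted over 9497 genes by Benjamini and Hochberg. Calls needed an adjusted p under 0.05 and a 2-fold change. A filter on low values removed 0 genes. The code was tested on simulated data. Tables and figures were made with Python 3.11.15, numpy 2.4.6, pandas 2.3.3 and matplotlib 3.10.9. Groups came from the titles of the samples. The genotype field matches the titles of WT and KO and reads as knockout for OE. The labels do not say that the libraries of a group came from separate cultures, so p-values measure a spread between libraries that may be technical. Each gene had a single spread shared by all 6 groups. The SD of the difference between paired libraries over all genes was 0.766 and 0.835 in the KO groups. It was 0.361 to 0.465 in the WT and OE groups. P-values of OE against WT thus rest partly on the spread of KO libraries, and those of KO comparisons on a spread that is small for KO.

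The members and gene lists were chosen with earlier results of these data known. Named genes were fixed landmarks, called members, and up to 3 members per direction with the largest change among those with an unadjusted p under 0.05 and non-overlapping libraries. Others named beside them, including E2F3, NUSAP1, KIF14, KIF11, CDC7, POLD1 and MCM4, were chosen after their values were seen. Alternatives covered the pseudocount, a filter, library weights, the trend, the samples fitted, the thresholds, a replicate block and each library left out. ATAC-seq and CUT&Tag data of the series were not used here.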

Additional observations from a re-analysis of the deposited data

Results flagged for a closer look

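For 8 members both KO libraries lay on one side of both WT libraries at day 25 and on the opposite side at day 30. The share of all genes that did so was not counted, so the 8 cannot be read as a result about the members. The difference of KO from WT at day 30 minus that at day 25 was 1.08 for E2F1, 1.28 for CDK6, 1.4 for AURKA, 0.68 for MCM10, 0.77 for MCM2, 1.2 for MCM5 and 1.05 for ORC5, each below WT at day 25 and above it at day 30. It was -0.48 for POLDIP3, which went the opposite way. In limma the adjusted p of these differences over all genes was 0.802, and 0.81 for MCM10, so none passed. CDK6, for example, was 272 and 172 in WT and 143 and 90 in KO at day 25, and 162 and 192 in WT and 212 and 240 in KO at day 30. Groups of 2 libraries are too small for a test of an extreme library.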

How the results depend on the processing

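The comparison of OE with KO over both days, with 9 members called, depended on the settings: 5 members passed with the replicate block, 5 without the intensity trend, 2 with library weights, 0 with only the libraries compared, 18 with no fold minimum and 0 to 20 with a library left out. The replicate numbers did not pair the libraries (correlations of deviations from -0.214 to 0.262). Leaving out a library gave 0 to 2 members in KO against WT at day 25, 0 to 16 at day 30 and 0 to 12 over both days, 0 to 11 in OE against KO at day 25, 0 to 24 at day 30, and 0 to 3 for the change of the KO difference between days. A group with a library left out has 1 library, assumed to vary like the others. With each KO group represented by its first library, an alternative chosen after seeing the data, 4 members passed in KO against WT at day 25, 15 in OE against KO at day 25 and 1 in OE against WT at day 30, and the mitotic medians were 0.0725 for KO against WT at day 30, -0.19 over both days and 0.50 for OE against KO at day 30. An adjusted p under 0.1 gave 11 members in OE against KO at day 25, and library weights gave 1 in OE against WT at day 30. With a library left out, medians at day 30 ran from -0.18 to -0.0048 (replication, KO against WT), -0.26 to 0.0725 (mitotic, KO against WT), 0.50 to 0.83 (mitotic, OE against KO), 0.18 to 0.48 (replication, OE against WT) and 0.35 to 0.62 (mitotic, OE against WT). Over both days they ran from -0.42 to -0.24 (replication, KO against WT) and 0.27 to 0.46 (mitotic, OE against WT). Without the second KO library of day 30, 12 members did not overlap between KO and WT. The cause of these changes was not tested, beyond the fewer libraries that some alternatives use.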
